A study of Homo sapiens with 4 samples.

Results

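The genes of cholesterol and lipid synthesis were examined in an m6A-seq experiment on irradiated HEK293T cells. The set holds 50 genes chosen by function, and 1 of them, DGAT1, was selected on its rise of m6A enrichment in these counts, so its enrichment change is given below as a description and supports nothing else. Of the 50 genes, 49 had at least 1 count in some library and DGAT2 had none in any. The filter on low counts, a mean across libraries of 50 or more, was passed by 23 of them and by 5320 of the 14911 genes listed. The other 27 genes stayed under this filter, and 10 of them never passed 10 counts in a library.

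HEK293T is an established line of human kidney origin, transformed with SV40 large T antigen, and its identity was not checked with marker genes here. Each of the 4 libraries came from cells exposed to X-rays, at 10 Gy by the study's methods, so irradiation is shared by all groups. A control shRNA (shCTL) gave 1 input and 1 m6A-IP library, and an shRNA against the m6A demethylase ALKBH5 (shA5) gave the same pair. The sources used here do not tie a harvest time, or either of the ALKBH5 shRNAs, to these libraries. With 1 library per group there was no replicate check and no p-value, and every interval below is an exact 95% interval for counting error only.

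Cholesterol is made from acetyl-CoA through mevalonate, isoprenoids and squalene, and the same precursor feeds the making of fatty acids. SREBP transcription factors, held in the endoplasmic reticulum by SCAP and the INSIG proteins when sterols are plentiful, switch on most of these enzymes together when sterols run low. Fatty acids are then elongated, desaturated and joined to glycerol to give phospholipids and triacylglycerols, with DGAT1 and DGAT2 catalysing the last step to triacylglycerol.

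The smallest library was the shA5 input, with 1311390 counts, and the largest was the shCTL m6A-IP, with 3944402. A count of 3 stood for 0.761 to 2.29 CPM (counts scaled to equal library totals), depending on the library, so the shA5 input sets the precision. The targeted gene, ALKBH5, fell from 217 to 111 CPM between the inputs, a log2 change of -0.97 with an interval of -1.25 to -0.70, so much of its RNA was still present. The 50 genes together took 0.542% of the shCTL input and 0.428% of the shA5 input. In the IPs they took 0.305% and 0.259%. SCD alone supplied 54.2% of these counts in shCTL and 45.9% in shA5 input RNA, and without it the set took 0.248% and 0.232%. Counts also differed with the number of coding transcripts that Gencode annotates for a gene, though not in a steady order. In shCTL input the 4 genes of the set with 1 coding transcript had a median of 228.5 counts (4 to 6577), and the 18 with 2 to 4 had 58 (2 to 659). The 19 with 5 to 8 had 9 (0 to 669), and the 9 with 9 or more had 31 (1 to 178). How reads shared between transcripts were counted is not given in the sources used here. GAPDH, a gene of known high abundance outside the set, had 78 counts in shCTL input. The part of that rule in the low counts was not tested.

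**Figure D1:**
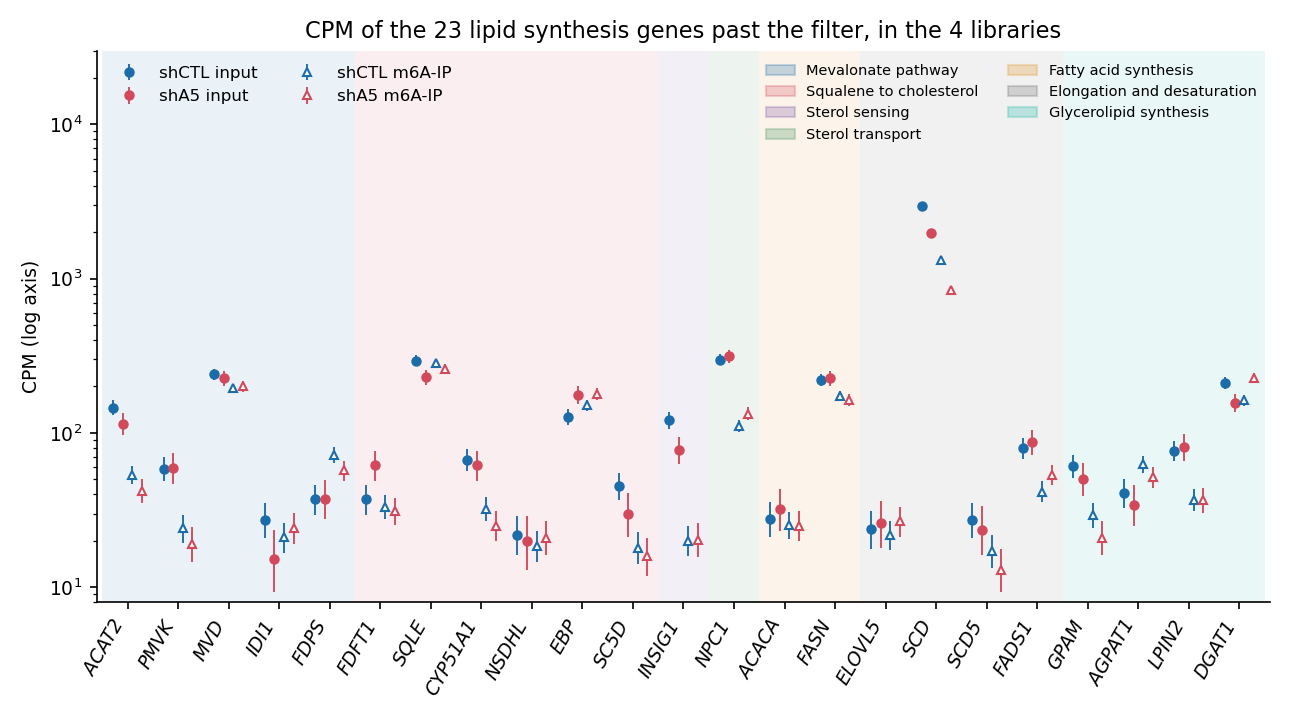
CPM (log axis) of the 23 lipid synthesis genes past the count filter in each of the 4 libraries, with circles for inputs, triangles for m6A-IPs, blue for shCTL and red for shA5, and with bars for the exact 95% counting interval. SCD lies far above the others in every library, and the triangles of most genes lie below their circles.

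m6A enrichment is the log2 ratio of IP CPM to input CPM, with 0.5 CPM added to both sides, and it is relative to the library totals. In shCTL most lipid synthesis mRNAs were recovered less in the IP than in the input. Their median log2 enrichment was -0.38, or -0.51 without DGAT1, whose own value sets that median, against -0.11 over all genes past the filter, and 20 of the 23 lay below 0, as did 2900 of all 5320. At least 1.5-fold enrichment was reached by 2 of the 23, FDPS and AGPAT1, and by 22.5% of all genes. IP values at least 1.5-fold under input were seen for 11 of the 23, and for 30.3% of all genes. In shA5 the median of the set was -0.70 (-0.77 without DGAT1) against -0.10 over all genes, with 2 of 23 enriched at least 1.5-fold (24.3% of all genes) and 12 of 23 at least 1.5-fold under input (31.7% of all genes). The sign of these values depends on the scaling. With the 7 mitochondrially encoded mRNAs set to an IP/input ratio of 1, the shCTL median rose to 0.66 for the set and to 0.92 for all genes, so the set stayed below all genes while its sign turned.

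**Figure D2:**
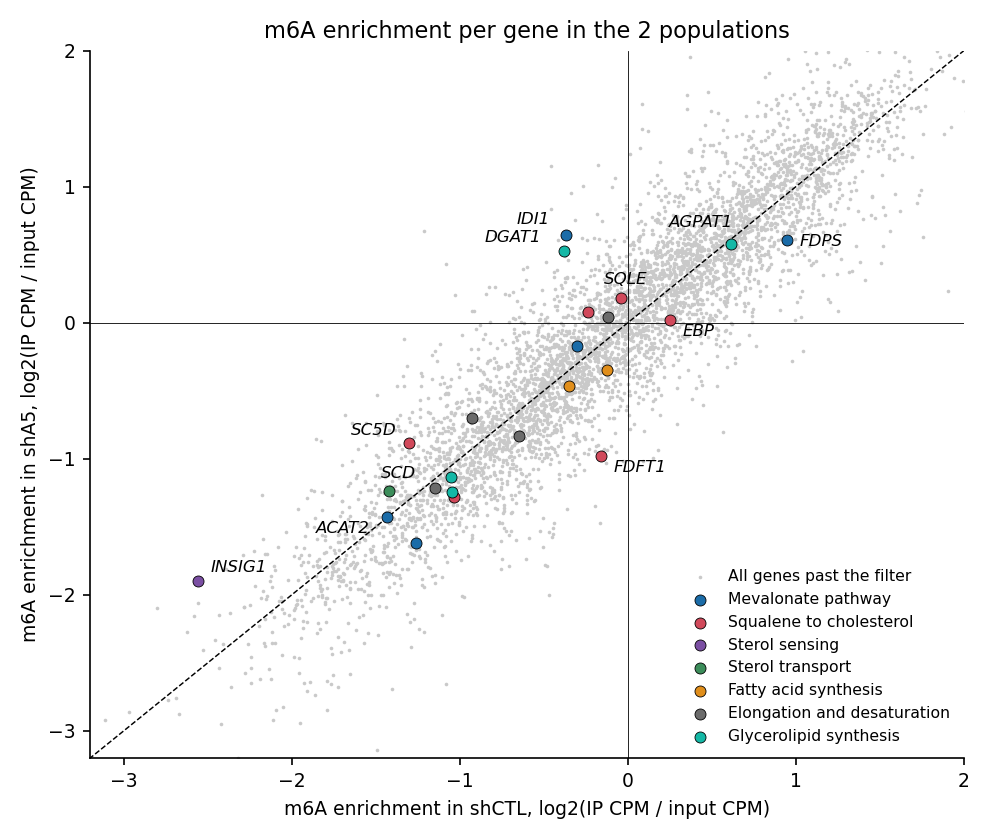
m6A enrichment, log2(IP CPM / input CPM), in shCTL (x axis) against shA5 (y axis) for all 5320 genes past the filter (grey) and the 23 lipid synthesis genes (coloured by role), with the dashed line at equality. DGAT1, IDI1 and INSIG1 lie above the line, FDFT1 lies below it, and most of the set lies in the lower left.

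Among the 23 genes past the filter, the highest enrichment in shCTL belonged to FDPS, which makes farnesyl diphosphate, the branch point to sterols and prenyl groups. FDPS had 83 input and 284 IP counts in shCTL, and 49 and 180 in shA5. Its log2 enrichment of 0.95 (interval 0.60 to 1.33) in shCTL compares with 0.61 (0.15 to 1.10) in shA5, and the intervals overlapped. AGPAT1, which makes phosphatidic acid in glycerolipid synthesis, had 91 and 247 counts in the shCTL pair and 45 and 162 in the shA5 pair. Enrichment stood at 0.62 in the first pair and at 0.58 in the other, nearly the same level, and exons of PPT2-EGFL8 lie opposite its transcript. The next was EBP, the sterol isomerase of late cholesterol synthesis, at 0.25 and 0.02.

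The lowest enrichment in shCTL among the 23 belonged to INSIG1, the sterol-regulated anchor of SCAP. INSIG1 had 270 input counts and 79 in the larger IP library, a log2 enrichment of -2.56 (-2.97 to -2.22), which is 5.90-fold under input. ACAT2, the cytosolic thiolase that starts the pathway, followed at -1.44 in shCTL and -1.43 in shA5. NPC1, which exports cholesterol from lysosomes, stood at -1.42 and -1.24. SCD, which makes monounsaturated fatty acids, was 2.21-fold under input in shCTL and 2.33-fold under input in shA5, with the narrowest intervals of the set.

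The word GGACT, the most common form of the m6A consensus, was searched on the sense strand of the most counted transcript of each gene, with Gencode v44 on hg38. INSIG1 (2908 nt) and ACAT2 (1520 nt) hold no GGACT, nor does the counted ELOVL5 transcript of 580 nt. AGPAT1 holds 4, all in its 3′ UTR, and FDPS and EBP hold 1 each, in the coding sequence. IDI1 holds 1 in its 3′ UTR and SCD holds 2 there. The 21-base windows below show the word in the genes with the highest enrichment, in IDI1, whose enrichment changed most among the 23 genes past the filter, and in SCD, the most counted gene, which was under input. GGACT is in capitals and the windows read 5′ to 3′ on the strand given.

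FDPS, coding sequence, chr1:155312362-155312382, plus strand: gcgggcctGGACTgtgggctg
EBP, coding sequence, chrX:48523939-48523959, plus strand: cccattggGGACTtggcggcg
AGPAT1, 3′ UTR, chr6:32169070-32169090, minus strand: ccatccatGGACTcttgcctc
AGPAT1, 3′ UTR, chr6:32168889-32168909, minus strand: tggccagtGGACTcatccatt
AGPAT1, 3′ UTR, chr6:32168833-32168853, minus strand: gattcaatGGACTcatccatt
AGPAT1, 3′ UTR, chr6:32168812-32168832, minus strand: tgtgaggaGGACTtctcgccc
IDI1, 3′ UTR, chr10:1040804-1040824, minus strand: cttgcagaGGACTtgctattt
SCD, 3′ UTR, chr10:100361564-100361584, plus strand: cctaatgaGGACTtcaagccc
SCD, 3′ UTR, chr10:100363414-100363434, plus strand: gttagcctGGACTaaaggcat

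The AGPAT1 windows lie within a short stretch after the stop codon, from 196 to 454 nt past it, while the SCD windows lie 641 and 2491 nt past it. Over 5279 genes with a coding transcript, the median enrichment in shCTL was -0.34 for fewer than 0.5 GGACT per kb (967 genes) and -0.21 for 0.5 to 1 (1802 genes). It was 0.05 for 1 to 2 per kb (2051 genes) and 0.08 above that (459 genes). The set had 6, 10, 7 and 0 genes in these classes, with medians of -1.29, -0.79 and -0.24 in the first 3, each below that of all genes in the class. Spearman's rho between GGACT density and enrichment was 0.45 across the 23 genes of the set and 0.17 across the 5279. The broader consensus (2 purines, A, C, then any base but G) gave -0.05 in the set and -0.04 over all genes, so the relation was seen with GGACT and not with it. The length of the 3′ UTR gave -0.48 in the set and -0.06 over all genes. It gave -0.41 without FDPS, whose most counted transcript has no annotated 3′ UTR, so no GGACT could be found in that part of FDPS. These correlations are across genes of the same libraries, which are not independent replicates. In the set, they and the class medians include DGAT1, at 1.09 GGACT per kb, whose shCTL enrichment is part of its selected ratio. Single genes went against the order of the classes. PMVK, phosphomevalonate kinase, had 1.996 GGACT per kb and an enrichment of -1.26, and ELOVL5, with none in its counted transcript, had an enrichment of -0.12, near the median of all genes. A match is a word in the transcript and not a measured m6A site, since the counts cover whole transcripts.

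**Figure D3:**
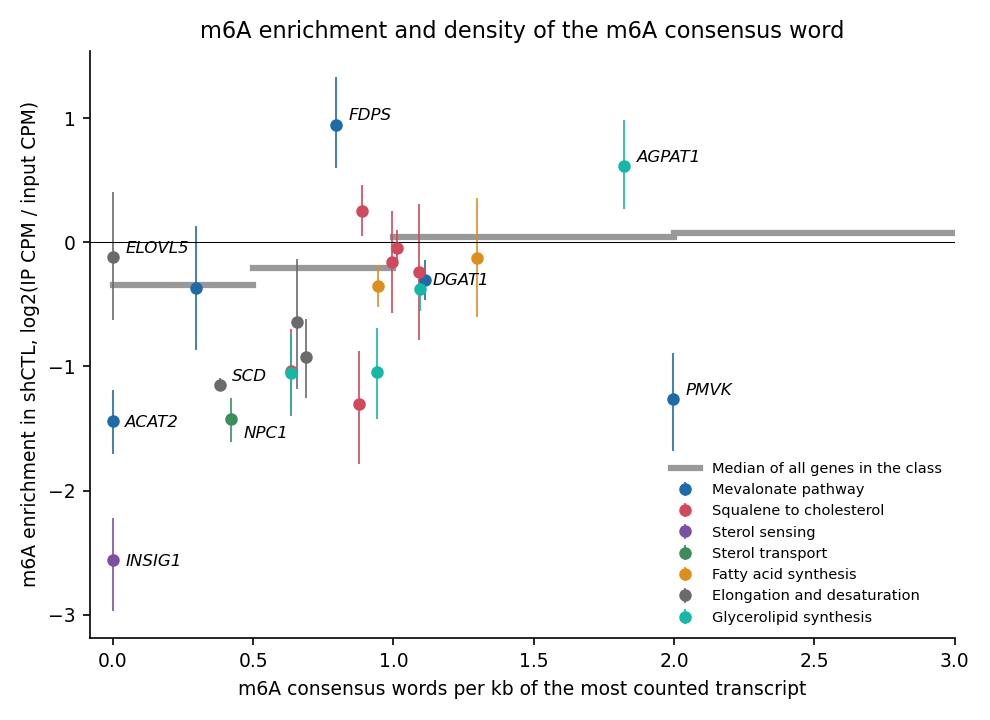
m6A enrichment in shCTL (y axis, log2, with 95% counting intervals) against the number of m6A consensus words per kb of the most counted transcript (x axis) for the 23 lipid synthesis genes, with grey lines at the median of all genes in each density class. INSIG1, ACAT2 and ELOVL5 have no word and lie at -2.56, -1.44 and -0.12, AGPAT1 lies high at 1.82 words per kb, and PMVK lies low at 1.996.

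Changes between populations are given as shA5 minus shCTL on the log2 scale. Enrichment change and input change use the same 2 inputs, so a low count in the shA5 input lowers one and raises the other, and the IP change is given beside them where a result turns on it. At least 1.5-fold higher enrichment in shA5 was seen for 3 of the 23 genes, DGAT1, IDI1 and INSIG1, and for 5.38% of all genes. DGAT1 was put in the set for this rise, so the count is read without it, as 2 of 22 genes. At least 1.5-fold lower enrichment was seen for 1, FDFT1, and for 5.09% of all genes. The median enrichment change was -0.04 in the set and 0.00 over all genes. Input RNA was at least 1.5-fold lower in shA5 for 3 genes, IDI1, INSIG1 and SC5D (6.43% of all genes), and at least 1.5-fold higher for 1, FDFT1 (3.44% of all genes). The counting interval of the input change lay wholly below 0 for 7 of the 23 genes, ACAT2, DGAT1, IDI1, INSIG1, SC5D, SCD and SQLE (15.6% of all genes), or 6 of 22 without DGAT1, whose input is part of the ratio it was selected on. It lay wholly above 0 for 2, EBP and FDFT1 (12.9% of all genes). The median input change was -0.11 in the set (-0.10 without DGAT1) and -0.02 over all genes. The libraries are bulk, so fewer cells with an mRNA and less of it per cell cannot be told apart.

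**Figure D4:**
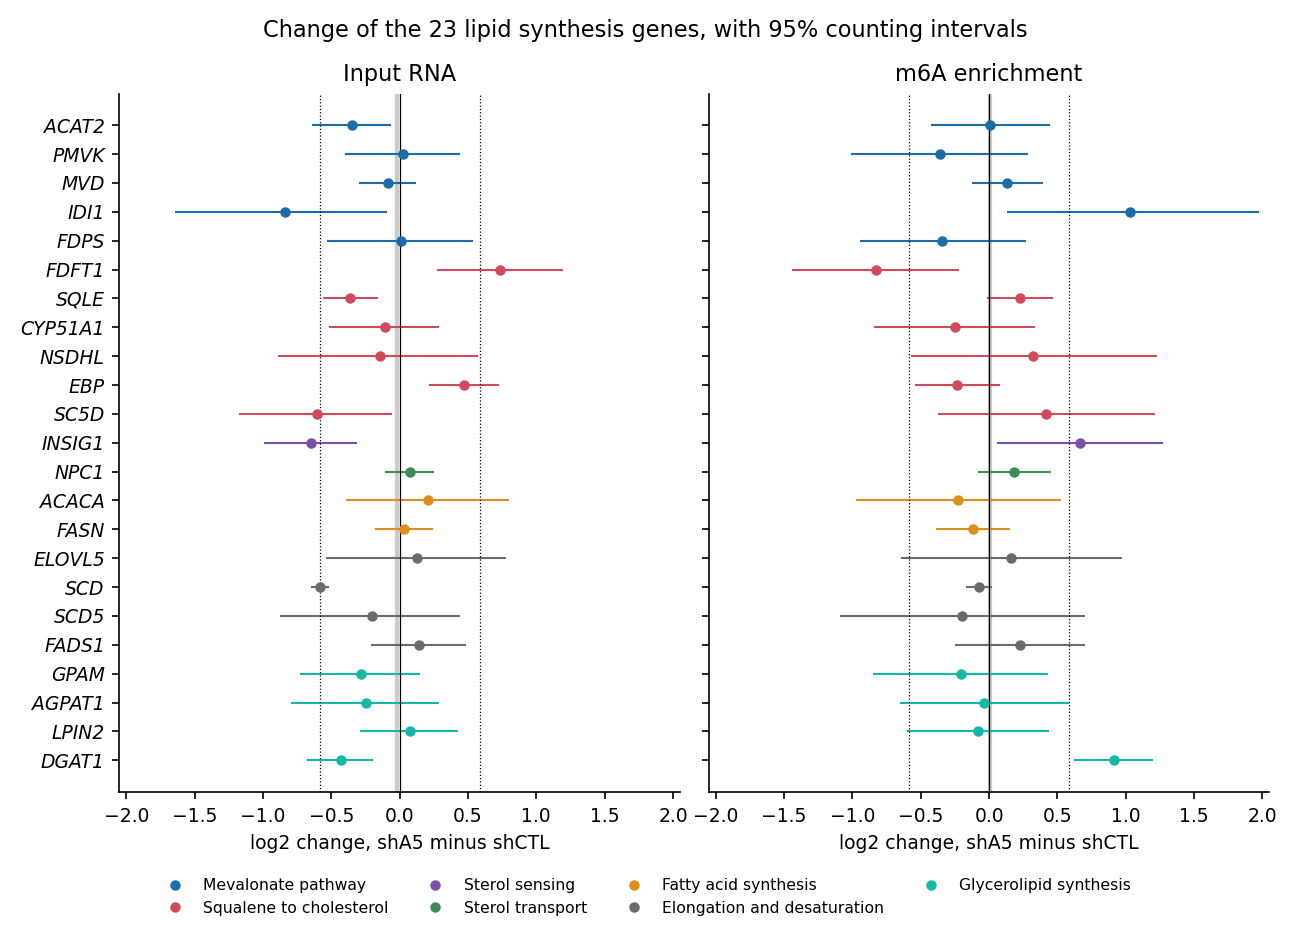
Log2 change from shCTL to shA5 of input RNA (left) and of m6A enrichment (right) for the 23 lipid synthesis genes, as raw ratios with exact 95% counting intervals, coloured by role, with dotted lines at 1.5-fold and a grey line at the median of all genes. DGAT1, selected on its enrichment change, lies at 0.91 on the right (0.62 to 1.20), and SCD has the narrowest input interval, -0.65 to -0.51.

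DGAT1 makes triacylglycerol from diacylglycerol. Its counts were 474 (input) and 642 (IP) in shCTL, and 206 (input) and 715 (IP) in shA5, which are 212, 163, 157 and 227 CPM. The input was lower and the IP was higher in shA5, so the CPM values of the pairs crossed. The log2 enrichment went from -0.38 (-0.55 to -0.21) to 0.53 (0.31 to 0.76). The change of 0.91 (0.62 to 1.20), or 1.88-fold, was larger than that of 98.7% of all genes, and it was the value on which the gene was selected. The input change was -0.43 (-0.67 to -0.19) and the IP change was 0.48 (0.32 to 0.64). Both are parts of the selected ratio and are given as a description.

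The DGAT1 counts came almost wholly from 1 transcript. ENST00000528718, of 3653 nt in 17 exons, held 98.5% of the gene's counts, and ENST00000332324 held the rest. Its exons overlap annotated exons of other genes on chromosome 8 of hg38, where DGAT1 runs on the minus strand from 144314584 to 144326910. ENSG00000254690, a lncRNA on the same strand, covers 444 bases of the transcript, MIR6848 covers 7, and HSF1, on the opposite strand, covers 137. Whether the counting used strand is not given in the sources used here, so reads in these bases cannot be assigned with certainty. HSF1 itself, a heat shock transcription factor, had 57 and 138 counts in the shCTL pair and 40 and 99 in the shA5 pair, and its enrichment change was -0.41 (-1.14 to 0.32). That is the opposite sign to DGAT1, with an interval that includes 0. The other enzyme of the step, DGAT2, had 0 counts in every library, for which the exact intervals end at 0.935 to 2.81 CPM.

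In the mevalonate pathway, 5 of 7 genes passed the filter. Their median enrichment change was 0.01 and their median input change was -0.09. IDI1, which interconverts the isoprenoid building blocks, changed most of the 5. It had 61 and 83 counts in the shCTL input and IP and 20 and 76 in the shA5 pair. The fall was in the input, from 27.3 to 15.3 CPM, while the IP went from 21.04 to 24.1 CPM. Its input change was -0.82 (-1.64 to -0.09), its IP change 0.19 (-0.27 to 0.66) and its enrichment change 1.01 (0.13 to 1.97). These intervals are wide because the shA5 input holds 20 counts, and antisense exons of IDI2-AS1 overlap the transcript.

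ACAT2 had 326 and 211 counts in the shCTL pair and 150 and 133 in the shA5 pair. Input and IP were lower in shA5 by like amounts, with changes of -0.35 (-0.64 to -0.07) and -0.34 (-0.66 to -0.02), so its enrichment change was 0.01 (-0.43 to 0.44). FDPS input stood at 37.1 and 37.4 CPM, a change of 0.01 (-0.53 to 0.54), and its IP change was -0.33 (-0.61 to -0.06). Exons of other genes lie opposite ACAT2 (TCP1 and SOD2) and FDPS (RUSC1-AS1). MVD, which makes isopentenyl diphosphate, was among the best counted genes of the pathway with 536, 766, 296 and 632 counts, and its changes were small, -0.09 for input and 0.13 for enrichment. HMGCS1, the HMG-CoA synthase, stayed under the filter with 25 and 24 counts in the shCTL pair and 5 and 11 in the shA5 pair. Its input change was -1.44 (-3.29 to -0.14), which rests on those 5 counts. PMVK, with 131, 95, 78 and 60 counts, had an input change of 0.02 (-0.40 to 0.44), and MVK never passed 6 counts.

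In the steps from squalene to cholesterol, 6 of 11 genes passed the filter, with a median input change of -0.12 and a median enrichment change of 0.00. FDFT1, squalene synthase, stood out from its neighbours in the pathway. Its input held 83 counts in shCTL and 81 in the smaller shA5 library, a rise from 37.1 to 61.8 CPM, or 1.66-fold, with an input change of 0.73 (0.28 to 1.20). Its IP counts were 131 and 98, or 33.2 and 31.1 CPM, which did not follow the input. The enrichment change was -0.82 (-1.44 to -0.22). FDFT1 counts were spread over 9 listed transcripts, 6 of them in Gencode, which annotates 11 coding transcripts for the gene. The most counted transcript held 30.03%.

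SQLE, squalene epoxidase, is the next enzyme and a rate-limiting one. It had 659 and 1127 counts in the shCTL pair and 301 and 819 in the shA5 pair, so its input fell from 294 to 230 CPM, a change of -0.36 (-0.56 to -0.16). That is the opposite direction to FDFT1, and the intervals of both input changes do not overlap. SQLE enrichment went from -0.04 to 0.18, a change of 0.22 (-0.02 to 0.47), and its IP change was -0.13.

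EBP had 284 and 597 counts in the shCTL pair and 231 and 563 in the shA5 pair. Both its input (0.47, 0.22 to 0.73) and its IP (0.24, 0.07 to 0.41) were higher in shA5, with an enrichment change of -0.23 (-0.54 to 0.08). A lncRNA on the same strand, ENSG00000286268, shares exon bases with EBP. SC5D, the sterol desaturase of the late pathway, had 101 and 71 counts in the shCTL pair and 39 and 50 in the shA5 pair. Its input change was -0.59 (-1.17 to -0.06) and its enrichment change 0.42 (-0.37 to 1.22), and the latter turned to -0.22 when only its most counted transcript was used. DHCR7, which makes cholesterol from 7-dehydrocholesterol, was under the filter with 31, 70, 17 and 29 counts. Its enrichment went from 0.35 to -0.47, and the interval of that change, -1.99 to 0.32, included 0, while its IP change was -0.91 (-1.62 to -0.30). CYP51A1 and NSDHL, which remove methyl groups from the sterol ring, had input changes of -0.11 and -0.14 with intervals that included 0. ENSG00000285772 and ENSG00000289027 share most exon bases of CYP51A1 on the same strand, so its counts are uncertain. The others of these steps, LSS, TM7SF2, MSMO1 and HSD17B7, were under the filter with 0 to 41 counts per library.

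The mevalonate and sterol steps together gave 11 genes past the filter of 18. Their median enrichment was -0.30 in shCTL and -0.17 in shA5. The median change was 0.01 for enrichment and -0.11 for input RNA. Of the 11, input RNA lay below 0 for 7 and above 0 for 4, and over all genes 2793 of 5320 lay below 0. The cholesterol enzymes therefore had no shared direction in these libraries, with FDFT1 and EBP higher and ACAT2, IDI1, SQLE and SC5D lower.

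Among the genes that sense sterols, INSIG1 alone passed the filter. It had 270 and 79 counts in the shCTL pair and 101 and 64 in the shA5 pair, and its input went from 121 to 77.0 CPM. The input change was -0.64 (-0.99 to -0.31), or 1.56-fold lower, while the IP stayed at 20.03 and 20.3 CPM. Its enrichment change of 0.67 (0.06 to 1.27) thus came from the input. Even so, INSIG1 remained 3.72-fold under input in shA5. SREBF2, which encodes the SREBP of cholesterol genes, had 52, 54, 20 and 22 counts, with an input change of -0.59 (-1.43 to 0.16) and an IP change of -0.92 (-1.76 to -0.23). SREBF1, whose products act mostly on fatty acid genes, had 18, 18, 13 and 15 counts, and SCAP, their escort protein, had 46, 34, 23 and 28. The input changes of SREBF1, 0.29 (-0.85 to 1.41), and SCAP, -0.22 (-1.02 to 0.52), were within counting error. INSIG2 never passed 5 counts in a library.

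Of the genes that move or store sterols, NPC1 passed the filter. It had 669 and 438 counts in the shCTL pair and 413 and 419 in the shA5 pair. Its input change was 0.08 (-0.11 to 0.25), its IP change was 0.26 (0.06 to 0.46), and its enrichment change was 0.19 (-0.08 to 0.45). Exons of RMC1 lie opposite its transcript. SOAT1, which esterifies cholesterol for storage, had 27, 27, 18 and 23 counts and an input change of 0.18 (-0.76 to 1.10). NPC2 had 1, 7, 3 and 12 counts, and STARD4 had 2 in the shCTL input and 0 elsewhere.

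For fatty acid synthesis, ACACA and FASN passed the filter. FASN, the fatty acid synthase, had 496 and 686 counts in the shCTL pair and 297 and 515 in the shA5 pair. Its input was 222 and 226 CPM, a change of 0.03 (-0.18 to 0.24), and its enrichment change was -0.12 (-0.39 to 0.15). ACACA, which makes malonyl-CoA, had 62, 100, 42 and 79 counts, an input change of 0.21 (-0.39 to 0.80) and an enrichment change of -0.22 (-0.97 to 0.53). Neither gene changed beyond counting error. ACLY, ACACB and ACAT1 stayed at or under 10 counts in every library, and ACSS2 had 6, 17, 8 and 11.

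Among the elongases and desaturases, 4 of 7 genes passed the filter. SCD had 6577 and 5233 counts in the shCTL pair and 2578 and 2660 in the shA5 pair, which are 2939 and 1327 CPM against 1966 and 845 CPM. Both of its shA5 libraries were lower, with an input change of -0.58 (-0.65 to -0.51), or 1.49-fold, just short of the 1.5-fold limit, and an IP change of -0.65 (-0.72 to -0.58). Its enrichment change was -0.07 (-0.17 to 0.02). Per kb of transcript, SCD input stood at 560 CPM in shCTL and 375 in shA5, against 26.2 and 26.8 CPM for FASN. SCD has 1 annotated coding transcript and FASN has 6, and the part of the counting rule in this difference was not tested. The other 3 genes past the filter, ELOVL5, SCD5 and FADS1, had input changes between -0.20 and 0.14, and FADS1 had an IP change of 0.36 (0.05 to 0.69). ELOVL6 fell short of it with 55, 74, 28 and 30 counts and an IP change of -0.94 (-1.64 to -0.35), and ELOVL1 had 2, 9, 2 and 3. FADS2, a desaturase of polyunsaturated fatty acids, had 0 and 10 counts in the shCTL pair and 7 and 16 in the shA5 pair, and no fold is given against the 0.

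No gene of the long-chain acyl-CoA synthetases (ACSL1, ACSL3 and ACSL4) passed the filter, with 1 to 34 counts per library. In glycerolipid synthesis 4 of 7 passed. Apart from DGAT1, whose input is part of its selected ratio, these were GPAM, AGPAT1 and LPIN2, which act in the steps before it. Their input changes were -0.28, -0.24 and 0.07, and their enrichment changes ran from -0.20 to -0.04, with intervals that included 0. The IP change of GPAM was -0.48 (-0.95 to -0.04). Under the filter, AGPAT2 had 12, 5, 4 and 14 counts and LPIN1 had 12, 3, 3 and 4. The AGPAT2 counts give an enrichment change of 2.21 with an interval of 0.14 to 5.24, and such counts are too few to place it.

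A wider list of 61 lipid genes outside the set was counted for comparison, covering phospholipid synthesis, isoprenoid use, sterol regulation, other fatty acid enzymes and beta-oxidation. Of these, 31 passed the filter. Of the 31, 0 had at least 1.5-fold higher enrichment in shA5 and 2 had lower, beside 5.38% and 5.09% of all genes. Their median enrichment was -0.26 in shCTL and -0.32 in shA5, with a median change of -0.03. Their median input change was 0.23, with 24 of 31 above 0, against -0.11 in the set, where 10 of 23 lay above 0, and -0.02 over all genes, where 2527 of 5320 did. By sublist, the median input change was 0.12 for phospholipid synthesis, 0.37 for isoprenoid use, 0.18 for sterol regulation, 0.24 for other fatty acid enzymes and 0.19 for beta-oxidation. At least 1.5-fold, 1 of the 31 was higher in input RNA and 0 were lower, beside 3.44% and 6.43% of all genes. This difference in median between the lists is a description of these 2 inputs, with no test.

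Promoter sequences were read from the RefSeq table of GRCh38.p14, which spans 250 bases before and 50 after each start site and has entries for 44 of the 50 genes and 18 of the 23 past the filter. ACAT2, FDFT1, SQLE, FASN, DGAT1 and DGAT2 were not searched. The 44 genes have 69 entries, and any gene was counted if at least 1 of its entries held the word. Entries per gene were not compared between the set and the listed genes. On both strands, TCACCCCAC, a sterol regulatory element bound by SREBPs, was found for SREBF2 and ACSL1, and for 0.512% of the 11715 genes that are in the table and listed in these libraries. The looser word TCANNCCAC, which includes it, was found for 6 of the 44 genes (13.6%) and for 4.43% of listed genes, and of the 6, INSIG1 and ELOVL5 were past the count filter. CCAAT, bound by NF-Y, was found for 32 of 44 (72.7%) and for 42.7% of listed genes. CACGTG, the E-box, was found for 6 of 44 (13.6%) and for 12.1% of listed genes. The 2 windows below show the looser word in INSIG1, a gene that SREBPs are known to control and whose input RNA was lower in shA5, and the strict word in SREBF2. The word is in capitals, on the plus strand of both genes, and distances are to the RefSeq start. The Gencode start of INSIG1, at 155297776, falls inside its window.

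INSIG1, 108 bases before the RefSeq start, chr7:155297760-155297789, plus strand: cggggcaagcTCAGGCCACgcccctgggcg
SREBF2, 133 bases before the RefSeq start, chr22:41832962-41832991, plus strand: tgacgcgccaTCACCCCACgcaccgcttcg

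ELOVL5, the other gene with the looser word and enough counts, had an input change of 0.13 (-0.54 to 0.78) beside -0.64 for INSIG1. The words describe the promoters, and no binding was measured in these libraries.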

How the data were processed

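m6A-seq libraries of X-ray-exposed HEK293T cells were analysed, 1 per group. The authors deposited raw counts per Ensembl transcript, not normalized, for transcripts with at least 1 count. Per the labels, reads were processed with fastp 0.23.2, aligned to hg38 with HISAT2 and sorted with SAMtools 1.9. Gene quantification is credited to StringTie in the methods. Not given in the sources used here are the annotation and the rules for strand and shared reads behind the deposited counts. Of the listed transcripts, 98.1% are in Gencode 44.

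Here counts were summed per gene symbol and divided by library totals. Enrichment, its change, the filter of a mean of 50 counts and the 1.5-fold limit are as stated with the results. Intervals were exact at 95% (Clopper-Pearson for a ratio, conditional odds ratio for an enrichment change) and were computed on the counts without the pseudocount. No fold was given where both sides had at most 3 counts. Reads carry no molecular identifiers. The members and lists were chosen with earlier results of these data known. Genes named with values are DGAT1, those past 1.5-fold in either change, the 3 highest and 3 lowest in shCTL enrichment, and a fixed list of enzymes and regulators, with other members named in passing. The steps were tested on simulated data. The alternatives were edgeR TMM or DESeq2 size factors, other pseudocounts, filters and thresholds, the most counted transcript only, and mitochondrial mRNAs as reference. Analyses used Python 3.11.15 with scipy 1.17.1 and pandas 2.3.3, and edgeR 4.0.16 and DESeq2 1.42.0 in R 4.3.3. Called peaks were not analysed here.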

Additional observations from a re-analysis of the deposited data

How the results depend on the processing

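No paired analysis was possible because the groups hold single libraries, and for the same reason no replicate could be left out. Of 154 values of single genes under the alternatives, 153 stayed within the gene's counting interval and none of the called ones turned direction. The exception was the enrichment change of SCD, 0.09 with mitochondrial mRNAs as reference. The enrichment change ran from 0.90 to 1.07 for DGAT1, 0.94 to 1.38 for IDI1, 0.65 to 0.83 for INSIG1 and -1.26 to -0.65 for FDFT1.

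The numbers of genes past the limit moved with the filter and the limit. With edgeR TMM factors 4 genes had lower input RNA (6.6% of all genes), since SCD reached -0.59. With a pseudocount of 2 CPM 2 had (5.85% of all genes), since SC5D came to -0.57. Without a filter (49 of 14911 genes, fewer where no fold was given), 7 were enriched in shCTL and 4 in shA5 (20.3% and 22.9% of all genes), 8 had higher and 10 lower enrichment in shA5 (16.8% and 16.4%), and 6 had higher and 11 lower input RNA (12.7% and 17.5%). With a mean of at least 10 counts (34 of 9269 genes), 6 had lower enrichment (13% of all genes), 3 higher input RNA (9.3%) and 5 lower input RNA (12.5%). With at least 200 counts (8 of 2491 genes), 1 gene had higher enrichment in shA5 (1.65% of all genes), DGAT1, which was selected on that value. With a 2-fold limit 1 had, IDI1 (0.846% of all genes). Each of the other 5 numbers was 0 in both settings. Over all genes, 29.1% and 10.1% were enriched in shCTL in these 2 settings, and 31% and 12% in shA5. The shares were 1.08% and 0.771% for lower enrichment, 1.08% and 0.47% for higher input RNA and 3.33% and 1.15% for lower input RNA. With the most counted transcript only (18 of 4999 genes), 1 was enriched in shA5 (26% of all genes) and 1 had lower input RNA (7.04%). In that setting 0 had lower enrichment (4.9% of all genes) and 0 had higher input RNA (3.44%). Fewer or more genes enter under these filters by construction.

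With mitochondrial mRNAs as reference, 12 of 23 genes were enriched in shCTL and 11 in shA5, beside 64% and 69.2% of all genes, and the shCTL median was 0.66. That scaling moved the median enrichment of all genes from -0.11 to 0.92 in shCTL and the median enrichment change of all genes from 0.00 to 0.17. The other medians stayed within their order-statistic intervals. The depth of the shA5 input limits genes with about 20 counts or fewer there, such as IDI1 and HMGCS1. The set without DGAT1, chosen after seeing the data, had a median enrichment of -0.51 in shCTL and -0.77 in shA5 and a median enrichment change of -0.05.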
